A study of Mus musculus with 8 samples.

Results

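The genes described here are 6 CXC chemokines, Cxcl1, Cxcl2, Cxcl3, Cxcl9, Cxcl10 and Cxcl16, out of 24787 genes counted in single cells of mouse tumors. They were chosen by name, as the members of this ligand family to be followed across cell classes and treatments. The tumors were MC38, a mouse colon carcinoma line, grown under the skin of female C57BL/6 mice of 8 weeks and dissociated 24 h after injection of saline (3 tumors), free R848 (3 tumors) or the medium R848-BPD (2 tumors). R848 is a small-molecule agonist of TLR7 and TLR8. R848-BPD is a bottlebrush polymer that carries R848 on a cleavable linker, and medium names the rate at which the linker lets the drug go. No group carried an engineered allele, and the study's methods for these 8 mice name no dose, although its tumor work in general was set at the maximum tolerated dose of free R848. CD45+ and CD45- cells of each mouse were put onto Seq-Well arrays at 9 to 1, so the mix of classes in a library was set in part by this step and is not read here as the makeup of the tumor. The questions asked were which cells held each chemokine, and whether neutrophil-attracting and interferon-induced members differed between treatments.

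CXC chemokines are small secreted proteins that steer leukocytes. Cxcl1, Cxcl2 and Cxcl3 act on Cxcr2 and draw neutrophils, and their genes are classical targets of NF-kB. Cxcl9 and Cxcl10 are induced by interferons and act on Cxcr3 of T cells and NK cells. Cxcl16 is made as a transmembrane protein, is shed by the proteases Adam10 and Adam17, and acts on Cxcr6.

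The neutrophil-attracting genes lie together on mouse chromosome 5 (GRCm38, GENCODE vM21 gene models): Cxcl3 at chr5:90786103-90789600, Cxcl1 at chr5:90891241-90893115 and Cxcl2 at chr5:90903871-90905938, all on the plus strand within 120 kb. Cxcl9 at chr5:92321347-92328079 and Cxcl10 at chr5:92346638-92348889 lie on the minus strand within 27.5 kb, and Cxcl16 lies at chr11:70453983-70459984 on the minus strand. Transcripts of Cxcl2 and Cxcl3 have 126 stretches of 50 bases in common, 5.84% of those of Cxcl2 and 3.51% of those of Cxcl3, so reads from them could have been shared out by the counting; the other members have no such stretch in common with a member. In the last 500 bases of the transcripts, 61 of 799 stretches of Cxcl2 and 0 of 902 of Cxcl3 were shared with another member. Exons of Cxcl10 overlap Art3 by 133 bases and those of Cxcl16 overlap Zmynd15 by 552 bases, in both cases on the opposite strand, and these counts are uncertain to that extent.

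The upstream sequences are shown because the neutrophil-attracting and interferon-induced members are set against each other below, and 5 of the 6 genes had a RefSeq promoter window (GRCm38.p6). The capitals mark matches, on either strand, to the kappaB-type letters GGNNTTTCC or, in Cxcl10 alone, also to the interferon-response-type letters TTTCNNTTT. Each run is 80 bases, 5′ to 3′ on the gene's strand. It covers 110 to 31 bases before the RefSeq start, except in Cxcl10, where it covers 222 to 143 bases before it. The runs are Cxcl1 at chr5:90891135-90891214, Cxcl2 at chr5:90903789-90903868, Cxcl3 at chr5:90785991-90786070, Cxcl9 at chr5:92328110-92328189 and Cxcl10 at chr5:92349032-92349111.
Cxcl1: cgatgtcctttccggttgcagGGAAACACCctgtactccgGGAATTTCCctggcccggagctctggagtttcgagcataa
Cxcl2: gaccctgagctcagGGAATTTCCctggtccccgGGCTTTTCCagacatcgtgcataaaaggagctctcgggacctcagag
Cxcl3: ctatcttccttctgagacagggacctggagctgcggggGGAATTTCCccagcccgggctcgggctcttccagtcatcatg
Cxcl9: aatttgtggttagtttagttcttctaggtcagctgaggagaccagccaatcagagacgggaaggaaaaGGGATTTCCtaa
Cxcl10: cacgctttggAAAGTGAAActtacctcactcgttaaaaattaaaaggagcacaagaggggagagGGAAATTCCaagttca
The run GGAATTTCC stands in all 3 neutrophil-attracting promoters, and the run GGAAATTCC of Cxcl10 is the same site read on the other strand. Over the 250 bases before the start, the kappaB-type letters matched 2 times in Cxcl1, 2 in Cxcl2, 1 in Cxcl3, 2 in Cxcl9 and 1 in Cxcl10, against 4.93% of 32851 promoter windows with any match. The interferon-response-type letters matched in Cxcl10 alone among these 5 genes and in 9.37% of all windows. The GAS-type letters TTCNNNGAA matched in none of the 5 and in 7.02% of windows, which says only that these letters are not in these windows.

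The 8 libraries held 10791 barcodes and between 5867590 and 12422614 unique molecular identifiers (UMIs) per tumor, and 9827 cells were used. A total of 23 barcodes occurred in several libraries, 9 of them in all 8; they carried 0.294% of UMIs and were left out. The median mitochondrial share per cell was lowest after R848-BPD, at 3.23 and 3.26%, against 4.05 to 5.53% after free R848 and 3.63 to 4.25% in saline; its part in any R848-BPD difference below was not tested. Cells were put into classes by lists of marker genes that hold none of the 6 chemokines: 5455 monocyte/macrophage-like, 1495 MC38-like, 651 NK-like, 440 DC-like (dendritic), 396 T-like and 72 neutrophil-like cells. Neutrophil-like cells numbered at least 10 only in free R848 replicate 3 and in both R848-BPD tumors. Saline replicate 2 stood apart: it had 904 macrophage-gated and 67 monocyte-gated cells and 13 DC-like cells, whereas the other saline tumors had 363 to 417, 335 to 360 and 56 to 107. It also held 6182 of the 10399 Cxcl9 UMIs of all tumors, and several values of monocyte/macrophage-like cells changed sign without it. For free R848 against saline these were Cxcl3, at 0.35 with it and -0.35 without it on the log2 scale, and Cxcl16, at -0.02 and 0.12, with Cxcl9 given below. Levels are in CPM, the UMIs of the gene as a share of all UMIs of the class in a tumor on the usual per-1000000 scale. Levels of single genes are not compared with each other, because this scale is not per length. The exception is the UMI ratio of the kinds of member given below, which gets no test.

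The neutrophil-attracting members came from different cells. Cxcl2 and Cxcl3 were held mostly by monocyte/macrophage-like cells, with a median over tumors of 81.5% (61.5 to 93.7) of the 40308 UMIs of Cxcl2 and 72.8% (53.7 to 100) of the 2025 UMIs of Cxcl3. Cxcl1 was split between MC38-like cells, with a median of 57.5% (10.4 to 81.0), and monocyte/macrophage-like cells, with 24.0% (7.87 to 80.8). The interferon-induced members were also split: monocyte/macrophage-like cells held a median of 64.2% (17.7 to 89.1) of Cxcl9 UMIs and 48.1% (11.3 to 67.7) of Cxcl10 UMIs, and MC38-like cells held 8.43% (5.83 to 24.3) and 40.8% (19.4 to 80.7). Cxcl16 lay in monocyte/macrophage-like cells, with a median of 86.2% (77.3 to 92.3), followed by DC-like cells with 6.28% (0.937 to 9.36). These shares depend on how many cells of each class were loaded.

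**Figure D1:**
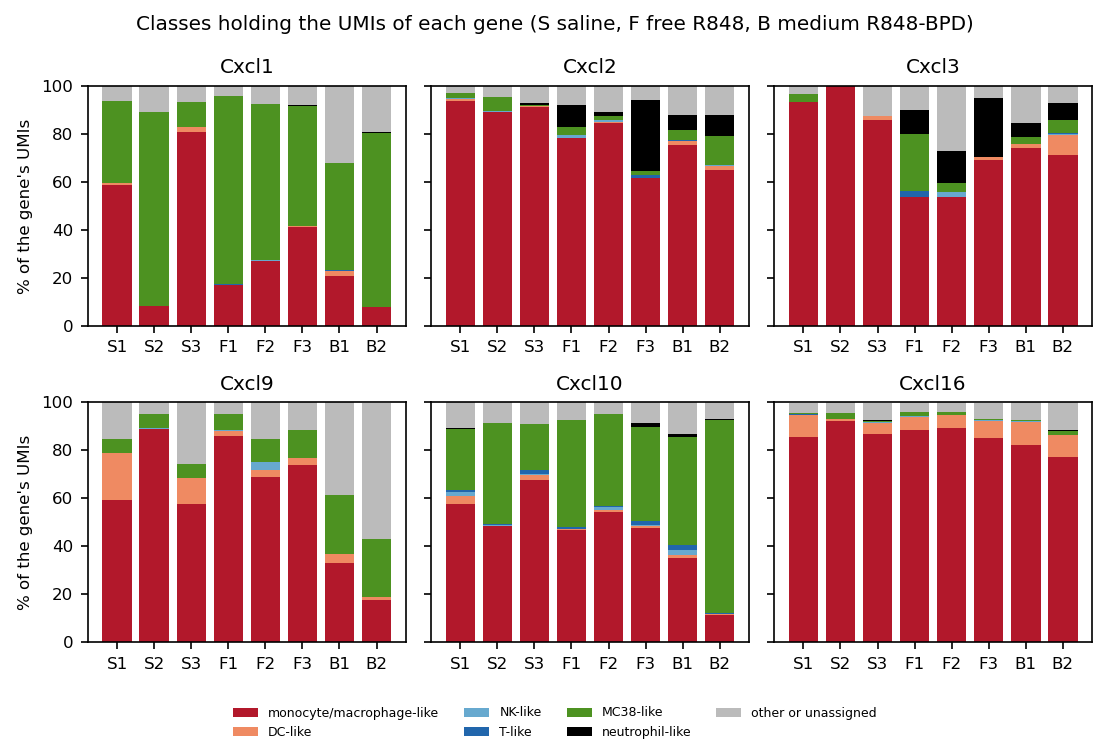
Stacked bars of the percentage of each gene's UMIs held by each marker-gated class, 1 bar per tumor (S saline, F free R848, B medium R848-BPD, with the replicate number). Monocyte/macrophage-like cells held 61.5 to 93.7% of Cxcl2 and 77.3 to 92.3% of Cxcl16, while MC38-like cells held 10.4 to 81.0% of Cxcl1.

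The order of levels was tested between neighbouring classes among the 5 with enough cells in every tumor (neutrophil-like and fibroblast-like cells are given after them), within tumors and over all treatments, by a two-sided exact sign-flip permutation test on log2(CPM + 1), with 24 pairs and Benjamini-Hochberg adjustment. With 8 tumors the smallest p was 0.00781, and no pair reached an adjusted p under 0.05 (smallest 0.0536), also where every tumor had the same sign. Among these 5, Cxcl1 was highest in MC38-like cells, 1.76 ± 1.58 (SD, n = 8) log2 units above monocyte/macrophage-like cells and higher in 7 of 8 tumors (exact p = 0.0234, adjusted 0.0625). Cxcl2 was 3.34 ± 1.02 log2 units higher in monocyte/macrophage-like than in DC-like cells, in 8 of 8 tumors (exact p = 0.00781, adjusted 0.0536). Cxcl3 had the same order at the top, by 2.23 ± 1.87 in 7 of 8 tumors (exact p = 0.0156, adjusted 0.0536).

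Among the interferon-induced members, Cxcl9 did not separate monocyte/macrophage-like from DC-like cells (0.44 ± 1.97 log2 units, higher in 4 of 8 tumors, exact p = 0.680, adjusted 0.777). The step of Cxcl9 from MC38-like down to NK-like cells was 3.75 ± 2.06 in 7 of 8 tumors (exact p = 0.0156, adjusted 0.0536), and no T-like cell of any tumor held a Cxcl9 UMI. Cxcl10 was 0.72 ± 0.81 higher in MC38-like than in monocyte/macrophage-like cells, in 7 of 8 tumors (exact p = 0.0156, adjusted 0.0536), and there 1.69 ± 0.94 higher than in T-like cells, in 8 of 8. Cxcl16 did not separate the top classes, being 0.16 ± 0.30 higher in DC-like than in monocyte/macrophage-like cells (exact p = 0.156, adjusted 0.268), and then fell by 5.77 ± 0.62 to MC38-like cells in 8 of 8 tumors (exact p = 0.00781, adjusted 0.0536). Between MC38-like, T-like and NK-like cells the steps of Cxcl16 were 0.23 ± 2.04 and 0.24 ± 2.22, smaller than their spread.

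Neutrophil-like cells, the targets of Cxcr2 ligands, themselves held much Cxcl2. Its level was 20154 CPM in free R848 replicate 3 (30 cells) and 7494 and 8974 CPM in R848-BPD replicates 1 and 2 (12 and 16 cells), against 343 to 1910 CPM in monocyte/macrophage-like cells of all tumors. Cxcl3 was at 669, 653 and 1072 CPM in the same 3 tumors, and Cxcl10 at 1099, 2116 and 621 CPM, while no Cxcl9 UMI was found in them. A test between classes was not made for neutrophil-like cells, which had at least 10 cells in 3 tumors only.

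Fibroblast-like cells, with at least 10 cells only in the R848-BPD tumors (12 and 27 cells), were rich in Cxcl1 and Cxcl9. Cxcl1 stood at 1529 and 2978 CPM and Cxcl9 at 1097 and 2247 CPM, so these few cells held 31.3% and 51.6% of the Cxcl9 UMIs of R848-BPD replicates 1 and 2. The other tumors had 1 to 4 fibroblast-like cells, and treatments were not compared in them.

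**Figure D2:**
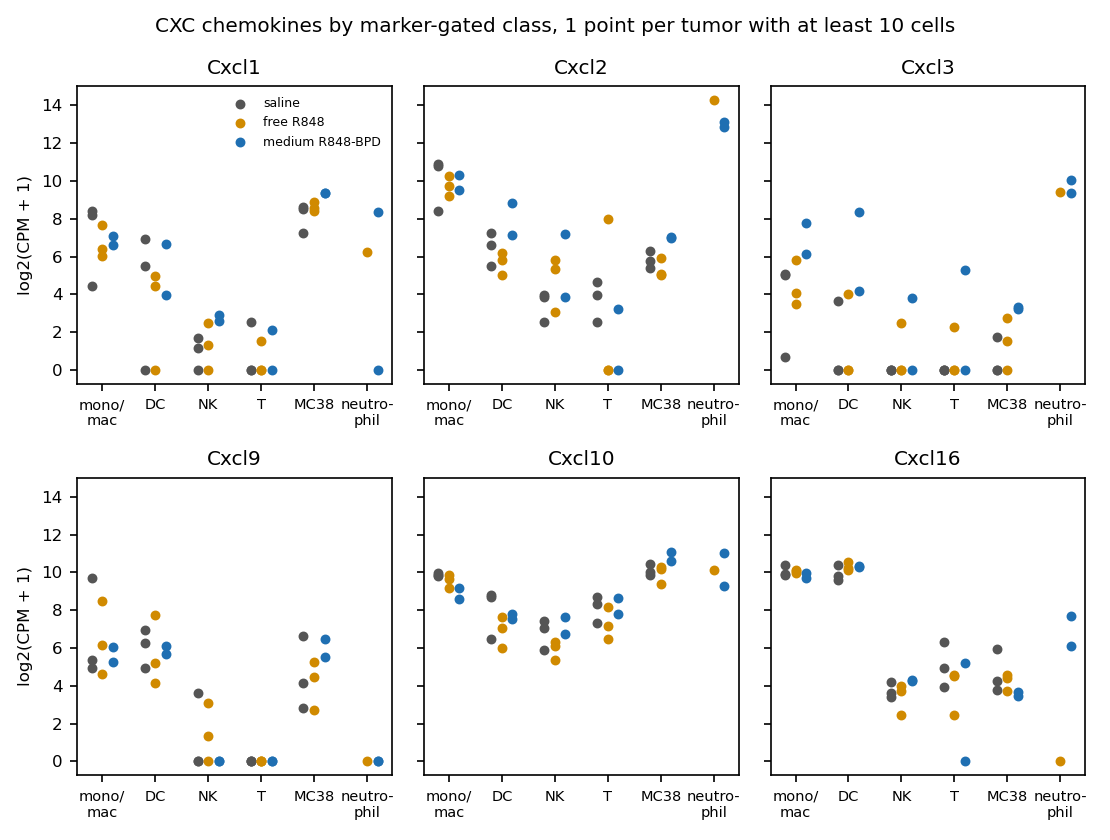
Level of each chemokine as log2(CPM + 1) in the 6 marker-gated classes, 1 point per tumor with at least 10 cells of the class, coloured by treatment. Cxcl2 was highest in the 3 tumors with enough neutrophil-like cells (7494 to 20154 CPM), Cxcl16 was high in monocyte/macrophage-like and DC-like cells, and Cxcl9 was at 0 in T-like cells.

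In monocyte/macrophage-like cells the comparison of treatments asked whether free R848 or R848-BPD changed each ligand 24 h after injection. Cxcl1 was at 332, 20.6 and 294 CPM in saline replicates 1 to 3, at 64.0, 83.5 and 205 CPM after free R848 and at 96.4 and 134 CPM after R848-BPD. Cxcl2 was at 1732, 343 and 1910 CPM in saline, at 579, 841 and 1209 CPM after free R848 and at 721 and 1281 CPM after R848-BPD. For both genes the treatments overlapped, and saline replicate 2 was the lowest of all 8 tumors. The change of Cxcl2 after R848-BPD was 0.23 ± 0.64 (log2 fold change ± SE) against free R848 (adjusted p = 0.919) and -0.38 ± 0.65 against saline (adjusted p = 0.766).

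Cxcl3 was the neutrophil-attracting member that stood higher after R848-BPD. It was at 32.2, 0.597 and 31.9 CPM in saline, at 10.2, 16.1 and 54.6 CPM after free R848 and at 69.2 and 215 CPM after R848-BPD. Both R848-BPD tumors lay above all other tumors, but edgeR did not call the difference in the whole class (2.48 ± 1.05 against free R848, adjusted p = 0.330; 2.83 ± 1.06 against saline, adjusted p = 0.144). With no filter on low counts Cxcl3 was called in both comparisons, along with other members. Without R848-BPD replicate 2 these changes were 1.37 and 1.73, and over all tumors left out in turn they ranged up to 3.51 and 3.47. In monocyte-gated cells alone, an alternative chosen after seeing the data, Cxcl3 was at 68.2, 0 and 30.4 CPM in saline, 31.6, 24.6 and 80 CPM after free R848 and 179 and 664 CPM after R848-BPD. There it rose by 3.20 on the log2 scale against free R848 (adjusted p = 0.00577) and by 3.22 against saline (adjusted p = 0.00340). Neutrophil markers were present in the class: the 6-gene list (5 detected in saline, 6 elsewhere) summed to 98.9 to 115 CPM after R848-BPD, 61.6 to 149 CPM after free R848 and 37.3 to 67.3 CPM in saline. All 5 osteoclast markers were detected too and moved with Cxcl3 without overlap, at 924 to 1228 CPM after R848-BPD, 532 to 607 CPM after free R848 and 132 to 446 CPM in saline. The fibroblast list (4 or 5 of 5 detected) did so at a low level, at 21.8 to 25.7, 9.85 to 20.9 and 8.06 to 12.6 CPM. The part of any of these lists in the result was not tested.

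The interferon-induced members had lower mean levels after R848-BPD than after either other treatment, without a call. Cxcl9 was at 30.2, 822 and 40.6 CPM in saline, 356, 23.5 and 71.0 CPM after free R848 and 37.5 and 65.3 CPM after R848-BPD, so that 1 tumor of the saline group and 1 of the free R848 group stood far above the rest. Its change after R848-BPD against saline was -2.46 ± 1.53 (adjusted p = 0.359) and 0.53 without saline replicate 2 (adjusted p = 0.778). Cxcl10 was at 1002, 909 and 927 CPM in saline, 943, 574 and 800 CPM after free R848 and 386 and 568 CPM after R848-BPD. Both R848-BPD tumors were the lowest of the 8, with a change of -0.65 ± 0.25 against free R848 (adjusted p = 0.283) and -0.94 ± 0.26 against saline, just short of the call (adjusted p = 0.0623). The latter was called in DESeq2 (adjusted p = 0.00749), without saline replicate 2 (-1.0, adjusted p = 0.0361) and in monocyte-gated cells alone (-1.51, adjusted p = 4.4e-04), where the levels were 1485, 1372 and 1122 CPM in saline and 432 and 550 CPM after R848-BPD. It was not called in macrophage-gated cells (-0.68), where saline stood at 743, 885 and 819 CPM and R848-BPD at 376 and 572 CPM, and came to -0.65 without R848-BPD replicate 1 (adjusted p = 0.241). With no filter on low counts the changes of Cxcl10 against saline and against free R848 were both called, along with other members. The monocyte markers of the class moved too, at 2113 to 2576 CPM after R848-BPD, 3540 to 4586 CPM after free R848 and 1277 to 4266 CPM in saline for all 7 genes, and their part in the result was not tested.

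Cxcl16 was at 943, 1336 and 964 CPM in saline, 1091, 1102 and 985 CPM after free R848 and 996 and 833 CPM after R848-BPD. The treatments overlapped, and the changes were -0.18 ± 0.16 against free R848 and -0.20 ± 0.16 against saline (adjusted p = 0.684 and 0.487).

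By count, edgeR called 0 of the 6 members in monocyte/macrophage-like cells in each comparison, where it called 1.30% of all 10712 genes tested for R848-BPD against free R848, 6.53% for R848-BPD against saline and 0.0187% for free R848 against saline. At an unadjusted p under 0.05 the members numbered 2, 2 and 0, and DESeq2 called 0, 1 (Cxcl10) and 0.

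**Figure D3:**
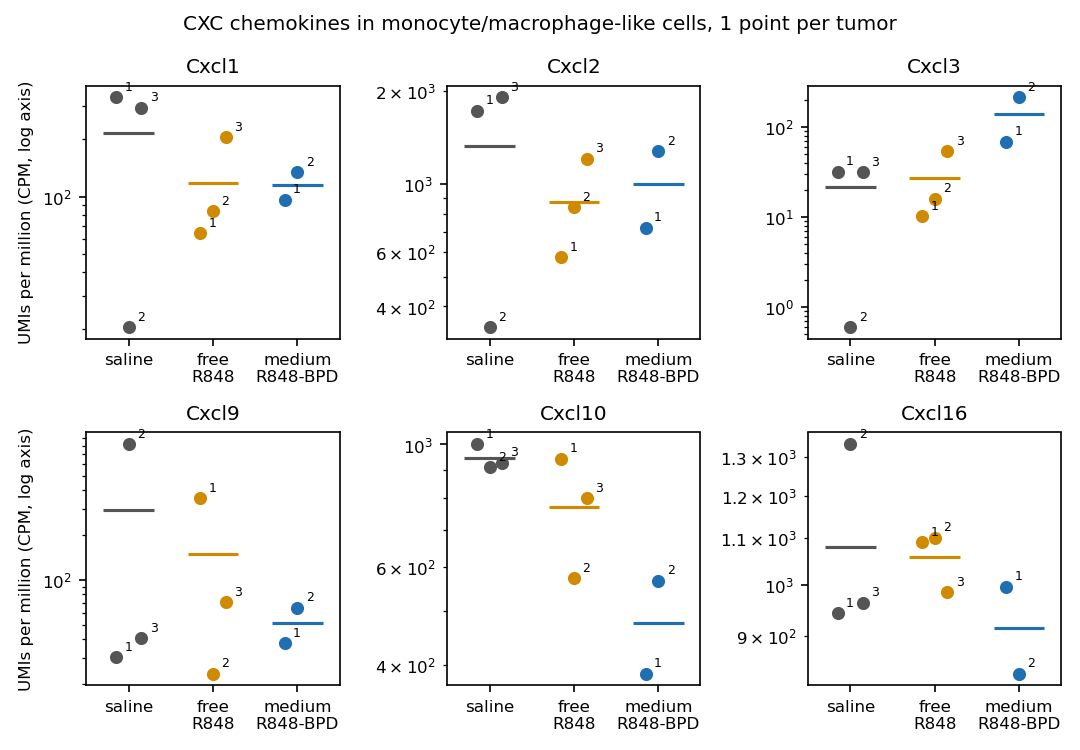
Level of each chemokine in monocyte/macrophage-like cells (CPM, log axis), 1 point per tumor with its replicate number and a line at the mean of the treatment. The R848-BPD tumors were the highest for Cxcl3 (69.2 and 215 CPM) and the lowest for Cxcl10 (386 and 568 CPM), and saline replicate 2 stood apart for Cxcl1, Cxcl2, Cxcl3 and Cxcl9.

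The share of monocyte/macrophage-like cells with a UMI was compared after each cell had been thinned to 1000 UMIs, which left out 28 of the 5455 cells. Cxcl3 was found in 5.72 and 9.86% of cells after R848-BPD, in 0.752 to 3.19% after free R848 and in 0.206 to 2.71% in saline, with no overlap. Cxcl10 was found in 16.6 and 19.1% after R848-BPD, 20.9 to 33.6% after free R848 and 28.9 to 35.4% in saline, again with no overlap. Thinned to 600 UMIs, the R848-BPD shares of Cxcl10 were 12.9 and 17.5% and overlapped free R848 (16.1 to 26.8%) but not saline (21.9 to 26.5%). Unthinned, they were 38.6 and 42.7%, against 44.8 to 61.5% and 45.6 to 65.2%. Both differences from saline had p = 0.1 by a two-sided exact permutation test, the smallest p that 2 tumors against 3 can give. Against free R848 the exact p was 0.1 for Cxcl3 and 0.200 for Cxcl10. In T-like cells, of similar depth (median 2647.0 to 6486.5 UMIs, and 3181.5 to 6451.0 in monocyte/macrophage-like cells), no thinned cell held Cxcl3, whereas Cxcl10 was found in 4.17 to 35.7% of them. In the R848-BPD tumors the T-like shares of Cxcl10 were 14.1 and 35.7%, the latter of 14 cells, so the myeloid shares were above the T-like shares in replicate 1 alone. By summed level Cxcl10 was 1.69 log2 units higher in monocyte/macrophage-like than in T-like cells, in 8 of 8 tumors. Whether T-like cells made Cxcl10 themselves was not tested.

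Detection of pairs of members was compared within monocyte/macrophage-like cells. Cxcl2 was detected in 65.8 to 87.0% of cells with a Cxcl1 UMI and in 23.4 to 46.6% of cells without, higher in 7 of the 7 tumors with enough such cells. Cxcl9 was detected more often in cells with Cxcl10 in 8 of 8 tumors (3.42 to 33.5% against 1.15 to 32.4%), but by little in several (4.21 against 3.98% in R848-BPD replicate 2) and with 4 to 9 such cells in 6 of them. Cxcl9 was also more frequent in cells with Cxcl16 in 7 of 8 tumors. Cxcl2 was more frequent in Cxcl9-positive cells in 1 of 5 tumors and less frequent in 4. These are descriptions over thinned cells.

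DC-like cells differed from monocyte/macrophage-like cells in Cxcl2. It was at 152, 44.4 and 96.8 CPM in saline, 31, 71.4 and 56.0 CPM after free R848 and 142 and 449 CPM after R848-BPD, so the R848-BPD tumors lay above all free R848 tumors and overlapped saline. It rose by 2.43 ± 0.48 on the log2 scale against free R848 (adjusted p = 0.0414) and by 1.33 ± 0.44 against saline (adjusted p = 0.0484). The call against free R848 was lost with the stricter gate (2.33, adjusted p = 0.196), and the call against saline with the stricter gate (1.87, adjusted p = 0.103), DESeq2 (1.51, adjusted p = 0.0654), only the 2 treatments compared (1.32, adjusted p = 0.0650) and clusters (0.49, adjusted p = 0.407). The replicate block ended both calls as well. Both rest on few cells: 1 cell held 49 of the 74 Cxcl2 UMIs of R848-BPD replicate 1 and 1 cell 37 of the 92 of replicate 2. With the richest cell of each tumor set aside, R848-BPD replicates stood at 48.9 and 275 CPM, free R848 at 10.6, 51.2 and 37.1 CPM and saline at 111, 0 and 64.8 CPM, and the R848-BPD and free R848 tumors then overlapped. The call against free R848 was lost without R848-BPD replicate 2 (1.41, adjusted p = 0.393), free R848 replicate 2 or 3 (2.71 and 2.45, adjusted p = 0.0818 and 0.164), or saline replicate 3 (2.44, adjusted p = 0.0631).

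The call of Cxcl2 against saline was lost when any tumor other than R848-BPD replicate 1 or free R848 replicate 1 was left out, with a change of 0.34 without R848-BPD replicate 2 (adjusted p = 0.736). In mature DC-gated cells alone the change against saline was -0.01 (adjusted p = 0.999), with levels of 354 and 171 CPM in saline replicates 1 and 3 (saline replicate 2 had 6 such cells and was left out), 32.5, 86.3 and 33.5 CPM after free R848 and 149 and 454 CPM after R848-BPD. The mature DC list itself summed to 3546 to 6525 CPM in saline, 7985 to 12466 CPM after free R848 and 10297 to 11570 CPM after R848-BPD in DC-like cells, and the 6 neutrophil markers to 8.75 to 29.6, 4.20 to 77.5 and 57.7 to 215 CPM. Without overlap, the 5 osteoclast markers stood at 165 to 229 CPM after R848-BPD, 41.3 to 79.8 CPM after free R848 and 88.8 to 120 CPM in saline, and the NK markers (6 detected after R848-BPD, 3 in each other group) at 53.7 to 59.6, 0 to 21.0 and 0 to 10.5 CPM. The part of any of these lists in the result was not tested.

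Other members of DC-like cells did not pass the test. Cxcl10 was at 446, 88.8 and 421 CPM in saline, 62.0, 198 and 132 CPM after free R848 and 186 and 224 CPM after R848-BPD, with a change after free R848 against saline of -1.41 ± 0.40 (adjusted p = 0.0631). Cxcl16 stood at 759 to 1347 CPM in saline, 1120 to 1508 CPM after free R848 and 1230 to 1279 CPM after R848-BPD. Cxcl3 had too few UMIs to be tested, and 56 of its 67 UMIs in R848-BPD replicate 2 were in 1 cell. In sum 1 of 5 members tested was called for R848-BPD against free R848 (0.407% of all 4420 genes tested), 1 of 5 against saline (16.3%) and 0 of 5 for free R848 against saline (3.03%), where 3 had an unadjusted p under 0.05 and DESeq2 called 0.

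In MC38-like cells, the carcinoma cells, Cxcl2 was called higher after R848-BPD in both comparisons and Cxcl1 against saline alone, while Cxcl3 was called in neither (adjusted p = 0.319 against free R848 and 0.0715 against saline). Cxcl2 was at 77.1, 40.3 and 53.8 CPM in saline, 32.0, 32.4 and 58.6 CPM after free R848 and 130 and 125 CPM after R848-BPD, and both R848-BPD tumors lay above all others. It rose by 1.71 ± 0.26 on the log2 scale against free R848 (adjusted p = 0.00734) and by 1.19 ± 0.25 against saline (adjusted p = 0.0243). Cxcl1 was at 395, 362 and 149 CPM in saline, 379, 335 and 468 CPM after free R848 and 661 and 643 CPM after R848-BPD, again with no overlap. Cxcl1 rose by 1.08 ± 0.25 against saline (adjusted p = 0.0359), and its change against free R848 was 0.74 ± 0.25 (adjusted p = 0.169).

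These calls did not rest on single cells as in DC-like cells, since at most 16.9% of the Cxcl2 UMIs of an R848-BPD tumor were in 1 MC38-like cell. The Cxcl2 call against free R848 was lost without free R848 replicate 1 (1.54, adjusted p = 0.0507) and where clusters took the place of gates (1.24, adjusted p = 0.0793). Against saline neither Cxcl1 nor Cxcl2 was called without R848-BPD replicate 2 (adjusted p = 0.205 and 0.154) or with clusters (adjusted p = 0.0901 and 0.0828). The Cxcl2 call against saline was also lost without saline replicate 2 or 3 (0.91 and 1.18, adjusted p = 0.0568 and 0.0637), and the Cxcl1 call without free R848 replicate 3 or R848-BPD replicate 1 (adjusted p = 0.0509 and 0.0508) and in DESeq2 (adjusted p = 0.171). With only the 2 treatments compared, and with the replicate block, Cxcl1 was not called against saline either. Neutrophil markers moved with the result at a low level: the 6-gene list in MC38-like cells summed to 15.2 to 17.7 CPM after R848-BPD, 7.82 to 11.5 CPM after free R848 and 5.51 to 12.7 CPM in saline. Macrophage markers went the other way, at 37.0 to 40.5, 60.7 to 130 and 67.2 to 367 CPM for all 7 genes, and the part of either list in the result was not tested.

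Neither interferon-induced member was called in MC38-like cells. Cxcl10 was at 911, 1401 and 1043 CPM in saline, 1144, 671 and 1242 CPM after free R848 and 1572 and 2127 CPM after R848-BPD, above all other tumors (0.87 ± 0.23 against free R848, adjusted p = 0.0855; 0.74 ± 0.23 against saline, adjusted p = 0.113). Cxcl9 was at 6.11, 97.6 and 16.5 CPM in saline, 36.8, 5.59 and 21.4 CPM after free R848 and 87.8 and 45.8 CPM after R848-BPD, and was highest in saline replicate 2 (0.44 ± 0.69 against saline with that tumor, adjusted p = 0.821). Cxcl16 was low, at 12.7, 61.4 and 17.9 CPM in saline, 22.6, 20.1 and 12.4 CPM after free R848 and 11.8 and 9.93 CPM after R848-BPD (-1.68 ± 0.51 against saline, adjusted p = 0.105). Cxcl3 had at most 46 UMIs in a tumor.

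By count 1 of 6 members was called in MC38-like cells for R848-BPD against free R848, where 0.983% of 10578 genes were, and 2 of 6 against saline, where 2.88% were. For free R848 against saline 0 of 6 members and 0% of all genes were called. There 0 members and 915 genes had an unadjusted p under 0.05, and DESeq2 called 0 members and 20 genes.

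**Figure D4:**
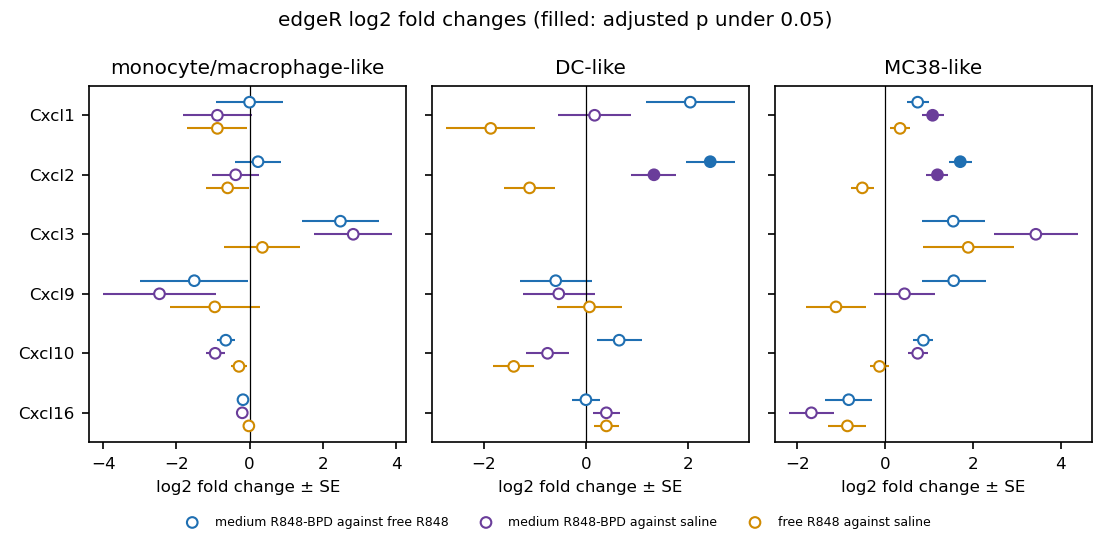
edgeR log2 fold changes (points) with standard errors (bars) of each tested member in monocyte/macrophage-like, DC-like and MC38-like cells for the 3 comparisons, filled where the adjusted p was under 0.05. The filled points are Cxcl2 in DC-like cells (2.43 and 1.33) and Cxcl2 (1.71 and 1.19) and Cxcl1 (1.08) in MC38-like cells, all for R848-BPD.

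Lymphocyte classes held little of these ligands apart from Cxcl10. In NK-like cells Cxcl10 was at 169, 134 and 59.4 CPM in saline, 40.4, 68.2 and 79.9 CPM after free R848 and 107 and 198 CPM after R848-BPD, and Cxcl2 UMIs were mostly in single cells (36 of 37 in free R848 replicate 1). Of 3 members tested 0 were called in NK-like cells in each comparison, beside 0.172% of 7566 genes for R848-BPD against free R848, 0.701% against saline and 0% for free R848 against saline. At an unadjusted p under 0.05 the members numbered 1, 1 and 2, DESeq2 called 0 in each, and for free R848 against saline 278 genes had an unadjusted p under 0.05 and DESeq2 called 0 genes.

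In T-like cells Cxcl10 was at 320, 161 and 418 CPM in saline, 87.0, 144 and 284 CPM after free R848 and 222 and 396 CPM after R848-BPD. It was the only member with enough UMIs to be tested, and 0 of 1 were called in each comparison (0.0758% of 5280 genes in each of the 3). Its unadjusted p was under 0.05 for free R848 against saline alone, and DESeq2 called 0 in each. In neutrophil-like cells, with 2 R848-BPD tumors against 1 free R848 tumor, 0 of 4 members tested were called (1.88% of 1171 genes), 1 had an unadjusted p under 0.05 and DESeq2 called 0 members. These 3 tumors leave 1 residual degree of freedom and the lone free R848 tumor is assumed to vary like the R848-BPD tumors, so nothing is read from this comparison.

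Whether a response differed between classes was tested by the class-by-treatment term, with tumor as a block, for 45 combinations of member, class and comparison, each class against monocyte/macrophage-like cells. A total of 7 were called. Cxcl10 after R848-BPD stood higher in MC38-like and lower in monocyte/macrophage-like cells, so the responses differed by 1.55 ± 0.24 log2 units against free R848 (adjusted p = 0.0136) and by 1.71 ± 0.24 against saline (adjusted p = 0.00316). For Cxcl9 the responses differed by 2.94 ± 0.52 (adjusted p = 0.0260) and 2.96 ± 0.53 (adjusted p = 0.0119). The latter was 2.20 without saline replicate 2 (adjusted p = 0.0328), where Cxcl9 of monocyte/macrophage-like cells was at 0.53 against saline, and ranged from 2.11 to 3.85 over all tumors left out in turn. For the neutrophil-attracting Cxcl1, Cxcl2 and Cxcl3 the response of MC38-like cells was not called different (adjusted p = 0.197 to 0.982 for R848-BPD). In DC-like cells Cxcl2 differed by 2.15 ± 0.40 against free R848 (adjusted p = 0.00756) and 1.92 ± 0.38 against saline (adjusted p = 0.00184), and in NK-like cells Cxcl10 differed by 1.87 ± 0.38 against free R848 (adjusted p = 0.0266). The single rich cells and the mature DC markers given above for DC-like cells apply to the Cxcl2 differences too, and their part was not tested. In NK-like cells the neutrophil markers stood at 10.8 to 147 CPM after R848-BPD, 2.5 to 7.58 CPM after free R848 and 0 to 2.41 CPM in saline (5, 5 and 2 of 6 detected), and the osteoclast markers at 29.1 to 31.9, 4.99 to 19.7 and 1.21 to 24.7 CPM (2, 3 and 3 of 5), and their part in the Cxcl10 difference was not tested. MC38-like cells held 44.7 and 80.7% of the Cxcl10 UMIs of R848-BPD replicates 1 and 2, and NK-like cells 2.07 and 0.229%. In T-like cells the Cxcl10 term against free R848 was 1.53 ± 0.41, without a call (adjusted p = 0.0917). Whether the Cxcl10 UMIs of lymphocyte classes came from those cells themselves was not tested.

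Where clusters took the place of gates, 4 of these calls were lost: Cxcl10 in NK-like cells (0.67, adjusted p = 0.618), Cxcl2 in DC-like cells against saline (1.05, adjusted p = 0.0571) and Cxcl9 in MC38-like cells in both comparisons (2.79 and 2.48, adjusted p = 0.0990 and 0.0711). Leaving out 1 tumor also ended several calls. Cxcl10 in MC38-like cells against free R848 was not called without free R848 replicate 1 or 2 or either R848-BPD replicate (1.49 to 1.62, adjusted p up to 0.105), whereas against saline it was called in each case. Cxcl9 in MC38-like cells against free R848 was not called without R848-BPD replicate 1 or any one free R848 tumor (2.09 to 3.27, adjusted p up to 0.212). Cxcl2 in DC-like cells was not called without R848-BPD replicate 2 in either comparison (1.77 and 1.53, adjusted p = 0.0854 and 0.0545), nor against free R848 without free R848 replicate 3 (1.82, adjusted p = 0.111). Cxcl10 in NK-like cells was not called without free R848 replicate 1 or 3 or either R848-BPD replicate (1.46 to 1.98, adjusted p up to 0.243).

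Over all genes these terms called few. For MC38-like cells 2 of 6 members were called for R848-BPD against free R848 (0.669% of genes), 2 of 6 against saline (2.94%) and 0 of 6 for free R848 against saline (0%, which is 0 of 11811 genes). For DC-like cells it was 1 of 5 (0.410%), 1 of 5 (3.77%) and 0 of 5 (0.615%). For NK-like cells it was 1 of 3 (0.493%), 0 of 3 (0.949%) and 0 of 3 (0.0186%), and for T-like cells 0 of 1 in each (0.547%, 0.417% and 0.0463%).

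The balance of the kinds was taken as the UMIs of Cxcl1, Cxcl2 and Cxcl3 over those of Cxcl9 and Cxcl10, a ratio within a class and tumor that gets no test. In monocyte/macrophage-like cells it was 2.03, 0.210 and 2.31 in saline, 0.503, 1.57 and 1.69 after free R848 and 2.09 and 2.57 after R848-BPD. R848-BPD thus lay above free R848 and overlapped saline. After R848-BPD these UMIs were mostly of Cxcl2 (7513, beside 904 of Cxcl1 and 967 of Cxcl3) and of Cxcl10 (3705, beside 387 of Cxcl9). There the ratio mainly sets Cxcl2 against Cxcl10. In monocyte-gated cells the ratio was 1.31, 0.414 and 2.10 in saline, 0.719, 1.96 and 1.97 after free R848 and 3.78 and 5.51 after R848-BPD, with both R848-BPD tumors above the rest. In macrophage-gated cells, the larger part of the class, it was 2.81, 0.198 and 2.48 in saline, 0.430, 1.48 and 1.55 after free R848 and 1.70 and 1.99 after R848-BPD, which lay below saline replicates 1 and 3.

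In DC-like cells the ratio was 0.375, 0.375 and 0.417 in saline, 0.185, 0.333 and 0.606 after free R848 and 1.11 and 2.70 after R848-BPD, the latter with the single rich cells described above. In mature DC-gated cells alone saline replicates 1 and 3 stood at 0.549 and 2.40 and the R848-BPD tumors at 1.11 and 2.70, so that these groups overlapped. MC38-like cells held more interferon-induced than neutrophil-attracting UMIs in every tumor, at 0.191 to 0.545 with no order by treatment. Neutrophil-like cells had 19.0 after free R848 and 3.85 and 16.7 after R848-BPD.

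**Figure D5:**
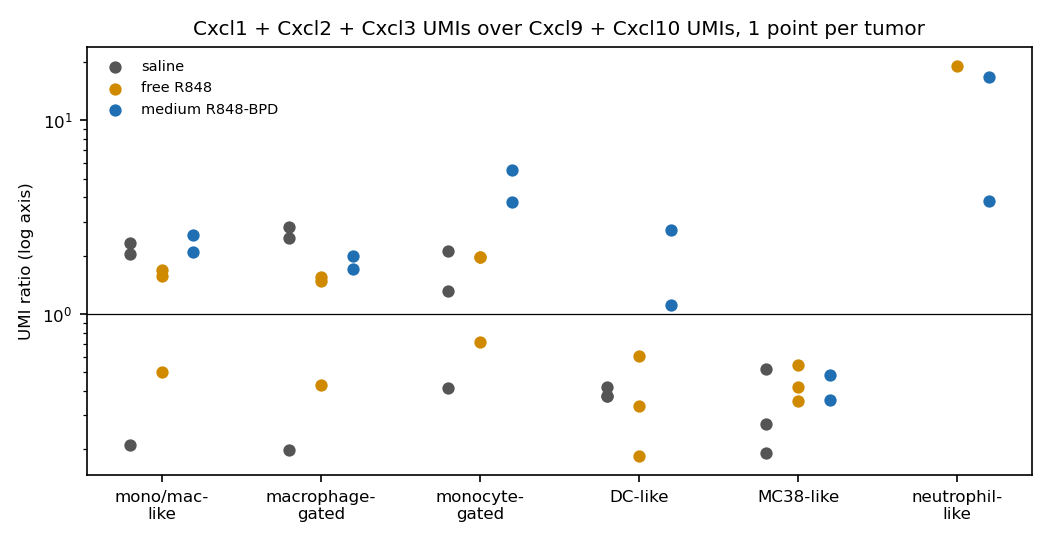
Ratio of the UMIs of Cxcl1, Cxcl2 and Cxcl3 to those of Cxcl9 and Cxcl10 (log axis, line at 1) by cell class, 1 point per tumor, coloured by treatment. After R848-BPD the ratio was 3.78 and 5.51 in monocyte-gated cells and 1.11 and 2.70 in DC-like cells, above the other tumors (in macrophage-gated cells 1.70 and 1.99, below saline replicates 1 and 3), while in MC38-like cells all tumors lay between 0.191 and 0.545.

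The receptors were read in the classes they are known to act on. Cxcr2, the receptor of Cxcl1, Cxcl2 and Cxcl3, was at 783, 1530 and 583 CPM in neutrophil-like cells of free R848 replicate 3 and R848-BPD replicates 1 and 2, and had no UMI in NK-like and T-like cells of any tumor. Cxcr3, the receptor of Cxcl9 and Cxcl10, was at 26.2 to 113 CPM in T-like and 0 to 15 CPM in NK-like cells. Cxcr6, the receptor of Cxcl16, was at 38.3 to 350 CPM in T-like and 1.5 to 12.5 CPM in NK-like cells.

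In monocyte/macrophage-like cells 1 of 5 tested genes of the receptor and shedding list was called in each R848-BPD comparison (1.30% of all genes against free R848 and 6.53% against saline). Cxcr4, the receptor of Cxcl12, fell by 1.42 on the log2 scale after R848-BPD against free R848 (adjusted p = 0.0408; mean 39.8 against 109 CPM) and by 1.43 against saline (adjusted p = 0.0169). The shedding proteases had changes against saline of -0.63 ± 0.23 (Adam10, adjusted p = 0.135) and -0.48 ± 0.14 (Adam17, adjusted p = 0.0772). Of the other CXC ligands Pf4, Ppbp and Cxcl14 were tested and none was called, and Cxcl11 was not found among the gene names.

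Known NF-kB and interferon targets of monocyte/macrophage-like cells were read against the shares of all genes called, 1.30% for R848-BPD against free R848 and 6.53% against saline. Of 21 NF-kB inflammatory genes 2 rose and 0 fell after R848-BPD against free R848: Irak3, a brake on TLR signalling (1.62, adjusted p = 0.00377), and Sod2, a mitochondrial superoxide dismutase (1.98, adjusted p = 0.00744). Against saline 2 rose (Irak3 by 1.92 and Sod2 by 2.04, adjusted p = 5.3e-04 and 0.00267) and 4 fell: the NF-kB subunits Nfkb1 (-0.84, adjusted p = 0.00663) and Rel (-1.21, adjusted p = 0.0332), the NF-kB regulator Nfkbiz (-0.82, adjusted p = 0.0332) and the adhesion molecule Icam1 (-0.95, adjusted p = 0.0168). The median change of that list was -0.15 against free R848 and -0.46 against saline, beside -0.01 over all genes tested in both.

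Of 22 interferon-induced genes tested, 19 had a positive change after R848-BPD against saline with a median of 0.37, and 1 was called, the checkpoint ligand Cd274 (1.5, adjusted p = 0.0182). After free R848 against saline all 22 were positive with a median of 0.47 and 0 were called, beside 0.0187% of all genes, while Cxcl10 of the same cells was at -0.29 ± 0.22. Cxcl9 was at -0.95 ± 1.23 with saline replicate 2 and at 2.06 without it (adjusted p = 0.282), so its direction rests on that tumor. Of the upstream list 0 of 5 tested genes were called, and Tlr7 was at 83.4, 100 and 96.5 CPM on average in saline, free R848 and R848-BPD.

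In MC38-like cells the interferon list had calls where Cxcl10 stood higher, and the genes named from here to the end of the next paragraph were picked after their values were seen. After R848-BPD against saline, where 2.88% of all genes were called, 6 of 23 genes rose and 0 fell, with a median of 0.65, among them Rsad2 (1.35, adjusted p = 0.00153) and Ifit1 (1.13, adjusted p = 0.00474), both antiviral effectors. Against free R848, with 0.983% of all genes called, 2 rose, Ifit1 and Rsad2 (1.29 and 1.16, adjusted p = 0.00429 and 0.00636), with a median of 0.53, and for free R848 against saline 0 of 23 were called with a median of 0.01. Of the 18 NF-kB genes tested in these cells 1 was called in each R848-BPD comparison, the myeloid cytokine Il1b, which fell by 2.05 on the log2 scale against saline (adjusted p = 1.1e-04) and by 1.52 against free R848 (adjusted p = 0.00270). The macrophage markers given above for MC38-like cells were also lowest after R848-BPD, and their part in this fall was not tested.

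DC-like cells had 7 of 21 interferon-induced genes higher after R848-BPD against saline (median 0.73), where 16.3% of all genes were called, among them Gbp3 and Gbp5, interferon-induced GTPases (2.12 and 2.09, adjusted p = 0.00170 and 5.1e-04). Of 19 NF-kB genes 6 rose, among them Il6 (3.43, adjusted p = 2.2e-04) and Tnf (2.04, adjusted p = 0.0297), and 2 fell, Il1b and Nlrp3 (-1.09 and -1.58, adjusted p = 0.00798 and 0.0232). Cxcr5, the receptor of Cxcl13, rose by 2.43 (adjusted p = 0.00333). After free R848 against saline, with 3.03% of all genes called, 3 of 21 interferon-induced genes also rose, Gbp2, Gbp3 and Gbp5 (1.41, 1.45 and 1.32, adjusted p = 0.0196, 0.0494 and 0.0302), and Nlrp3 fell by 2.15 (adjusted p = 0.0196). Against free R848, with 0.407% of all genes called, R848-BPD had 0 of 21 interferon-induced genes and 1 of 19 NF-kB genes called, Il6 (1.70, adjusted p = 0.0469). The makeup of the class moved with these calls: mature DC-gated cells were 35 of 107, 6 of 13 and 25 of 56 DC-like cells in saline, 31 of 33, 37 of 49 and 32 of 41 after free R848 and 87 of 92 and 48 of 49 after R848-BPD, and the part of this shift in the list calls was not tested.

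Over the 8 tumors, levels in monocyte/macrophage-like cells (log2 CPM) tied Cxcl1 and Cxcl2 closely, with Pearson r = 0.97, a description over all 8 that was not computed without saline replicate 2, the lowest tumor for both genes. The interferon-induced Cxcl9 and Cxcl10 were less tied, with r = 0.37. Among 4961 other genes Cxcl1 was most like Tmem189 (r = 0.98), Thbs1 and Reep3 (0.97 each), and Cxcl2 was most like Reep3 (0.99), Cd164 and Ccrl2 (0.98 each). Cxcl3 was most like Fam168a and the interferon-induced Ifit1 (0.99 each) and Rsad2 (0.98), and had r = -0.95 with Cxcl16. Cxcl9 was most like Slamf8 and Ppt1 (0.94 each). Cxcl10 was most like Cers6 (0.95), Tpst1 (0.94) and Atp5e (0.93), and Cxcl16 most like Exosc8 (0.97), Cand1 and Gna12 (0.96 each). Saline replicate 2 was also the lowest tumor for Cxcl3 (0.597 CPM) and the highest for Cxcl9 (822 CPM) and Cxcl16 (1336 CPM). These r values were likewise not computed without it, and the genes named are the highest picked from 4961.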

How the data were processed

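Whole-number UMI counts per gene and cell barcode were used as the authors deposited them, 1 table per tumor; the submitters' processing notes name bcl2fastq and mm10, and the aligner and annotation are not given in the sources used here. Barcodes found in several libraries were left out. Cells with 400 to 10000 genes, at most 50000 UMIs and at most 15% mitochondrial UMIs were kept. A cell was gated to the marker list with the highest score (each marker's counts per 10000 scaled by its 99th percentile) if at least 2 markers were found and the next list reached at most 0.7 of it, which leaves out cells with markers of different lineages; no doublet caller was run. A stricter gate used 3 markers and 0.5. Counts were summed per class and tumor (at least 10 cells), since tumors, not cells, are the replicates, and tested in 1 fit over all treatments per class with edgeR 4.0.16 (R 4.3.3; quasi-likelihood, TMM, filterByExpr, prior count 2), with Benjamini-Hochberg adjustment over all genes tested and a threshold of 0.05. Alternatives were DESeq2 1.42.0, RLE normalization, no filter, a fit of the 2 treatments compared, a replicate block, other gates, clusters and leaving out each tumor. Levels were compared as log2(CPM + 1). Depth was 5867590 to 12422614 UMIs per tumor, and shares of cells were taken after thinning to 1000 UMIs (600 and 2000 as alternatives). Nothing in the labels gives a sequencing run or batch, so a batch and the treatment cannot be told apart.

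The members and lists were chosen with earlier results of these data known. The genes named were the 6 members in every class and comparison, the called genes of the fixed lists in monocyte/macrophage-like cells, receptors and ligands in other classes, and the 3 genes most correlated with each member among tested genes whose log2 CPM averaged 5 or more (1 of these is not reported here). On simulated counts with 200 genes changed by 2 on the log2 scale for R848-BPD against free R848, the fit recovered 184 in monocyte/macrophage-like cells (10712 genes, 4 false calls), 169 in DC-like cells (4420 genes, 10 false calls), 182 in NK-like (7566 genes, 7), 174 in T-like (5280 genes, 12), 197 in MC38-like (10578 genes, 12) and 56 in neutrophil-like cells (1171 genes, 0). These recoveries hold for the dispersions simulated, such as 0.0380 in monocyte/macrophage-like and 0.0470 in DC-like cells. In monocyte/macrophage-like cells the SE of this comparison was 1.05 for Cxcl3 and 1.48 for Cxcl9. The recoveries are therefore not read as the power for single members, and a member not called is not shown to be unchanged. Clusters came from scanpy 1.11.5, exact tests from scipy 1.17.1, tables from pandas 2.3.3 with numpy 2.4.6, and figures from matplotlib 3.10.9, all in Python 3.11.15.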

Additional observations from a re-analysis of the deposited data

Results flagged for a closer look

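The treatment response of a member differed between cell classes in 7 of 45 combinations tested. Each was set against monocyte/macrophage-like cells in edgeR with tumor as a block. Of all genes, the same terms called 0.410 to 3.77% for R848-BPD and 0 to 0.615% for free R848 against saline, depending on the class. For Cxcl2 in DC-like cells the difference was 2.15 log2 units for R848-BPD against free R848 and 1.92 against saline. For Cxcl10 in NK-like cells it was 1.87 against free R848. For Cxcl9 in MC38-like cells it was 2.94 against free R848 and 2.96 against saline, and for Cxcl10 in MC38-like cells it was 1.55 and 1.71. With clusters in place of gates, Cxcl10 in NK-like cells was no longer called (0.67, adjusted p = 0.618). Neither were Cxcl9 in MC38-like cells in both comparisons and Cxcl2 in DC-like cells against saline. Only the MC38-like differences against saline kept their call whichever tumor was left out. The DC-like Cxcl2 values rest on few cells, with 49 of 74 UMIs of R848-BPD replicate 1 in 1 cell and 37 of 92 of replicate 2 in 1 cell. In mature DC-gated cells alone the change of Cxcl2 after R848-BPD against saline was -0.01.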

How the results depend on the processing

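Of 406 values of single members under alternatives, 336 kept their direction and side of the threshold, 30 were no longer called, 15 became called and 25 changed sign. In monocyte/macrophage-like cells Cxcl1 (R848-BPD against free R848, -0.00) came to 0.01 with RLE normalization, 0.01 with no filter, 0.00 with only the 2 treatments compared, 0.05 with clusters and 0.90 in monocyte-gated cells. In monocyte-gated cells Cxcl16 came to 0.18 against free R848 and 0.00 against saline, and Cxcl2 to 0.09 against saline; in macrophage-gated cells Cxcl16 came to 0.01 for free R848 against saline. Cxcl2 in mature DC-gated cells came to -0.01 against saline. Here and below the cause was not tested.

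Counts of members called moved as follows, in the order R848-BPD against free R848, R848-BPD against saline and free R848 against saline. With no filter on low counts they were 3, 4 and 3 in monocyte/macrophage-like, 3, 2 and 2 in DC-like, 1, 1 and 2 in NK-like and 4, 5 and 2 in MC38-like cells, and 1 in T-like cells in the first and last. In monocyte-gated cells they were 1 and 2, and DESeq2 called 1 against saline in monocyte/macrophage-like cells. In DC-like cells the first fell to 0 with the stricter gate, the second to 0 with DESeq2, only the 2 treatments, clusters or mature DC-gated cells, and the last rose to 1 with the stricter gate or mature DC-gated cells. In MC38-like cells the first was 2 with only the 2 treatments and 0 with clusters, and the second 1 with DESeq2 or only the 2 treatments and 0 with clusters. With clusters 4 response differences were no longer called, at 1.05 for Cxcl2 in DC-like cells against saline, 0.67 for Cxcl10 in NK-like cells, and 2.79 and 2.48 for Cxcl9 in MC38-like cells.

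Leaving out each tumor gave, in monocyte/macrophage-like cells, Cxcl1 -0.32 to 0.72, Cxcl2 -0.31 to 0.62 and Cxcl9 -2.01 to 0.13 against free R848, Cxcl2 -0.91 to 0.02 and Cxcl9 -2.98 to 0.53 against saline, and Cxcl3 -0.69 to 0.91, Cxcl9 -2.59 to 2.06 and Cxcl16 -0.09 to 0.12 for free R848 against saline. Members called ranged from 0 to 1 in monocyte/macrophage-like cells against saline, 0 to 2, 0 to 2 and 0 to 1 in DC-like cells, 0 to 1 in NK-like cells against saline, and 0 to 2 and 0 to 4 in MC38-like cells. Response differences ranged from 1.77 to 2.51 and 1.53 to 2.27 (Cxcl2, DC-like), 1.46 to 2.19 (Cxcl10, NK-like), 2.09 to 3.84 (Cxcl9, MC38-like, against free R848) and 1.49 to 1.66 (Cxcl10, MC38-like, against free R848). The level of Cxcl9 in monocyte/macrophage-like over DC-like cells ranged from -0.18 to 0.73. Over all genes, the 139, 700 and 2 calls in monocyte/macrophage-like cells ranged from 13 to 554, 91 to 1209 and 1 to 146, with the highest of each without saline replicate 2. Over all alternatives together, calls over all genes ranged from 13 to 943, 91 to 1776 and 0 to 607 in monocyte/macrophage-like cells, from 2 to 123, 121 to 898 and 6 to 377 in DC-like cells (18, 720 and 134 in the text's fit), from 7 to 91, 33 to 145 and 0 to 13 in NK-like cells (13, 53 and 0), from 1 to 101, 0 to 74 and 0 to 18 in T-like cells (4 each), from 19 to 579, 52 to 766 and 0 to 154 in MC38-like cells (104, 305 and 0), and from 3 to 25 in neutrophil-like cells (22), where no tumor could be left out.

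Same-numbered tumors did not deviate together (r = -0.26 to 0.15), so the numbers do not pair them. With the replicate block Cxcl1 in monocyte/macrophage-like cells came to 0.67 against free R848, Cxcl2 to 0.07 against saline and Cxcl9 to 0.14 for free R848 against saline. Members called with the block were 0 and 0 in DC-like cells for R848-BPD (Cxcl2 2.32 and 1.02, adjusted p = 0.137 and 0.202) and 1 in MC38-like cells against saline.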
